A study of Mus musculus with 9 samples.

Results

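Lysozymes and other antimicrobial effectors of phagocytes were followed in J774A.1, an established mouse macrophage cell line, during IL-4 and IL-13 treatment with or without the compound Q11. The genes were chosen by symbol: Lyz1, Lyz2, Mpeg1, Slc11a1, Slpi, Lcn2, S100a8 and S100a9. The table of transcript levels for 26157 genes held 7 of these 8 genes, and S100a9 was not analysed here. Of the 7, Lyz2, Mpeg1, Slc11a1, Slpi and S100a8 reached a level of 1 TPM, a share of the library's transcripts corrected for length, in at least 3 of the 9 libraries and were tested, while Lyz1 and Lcn2 stayed under 1 TPM in every library and are described by their reads.

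Poly-A RNA was sequenced from 9 libraries, 3 to a group. Control cells were kept in normal culture, M2 cells were given IL-4 and IL-13 at 10 ng/mL, and Q11 cells were given Q11 at the same time as both cytokines. The series title names Q11 as an inhibitor of CYP2E1, a cytochrome P450 enzyme; neither its dose nor the length of treatment is stated in the sources used here. All groups share 1 cell line with no other cell type in culture, so the values describe that line and not primary macrophages. Since the labels do not say whether the libraries of a group came from separate cultures, the p-values measure only the spread between these samples.

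Professional phagocytes kill and starve microbes with several kinds of protein. Lysozyme cuts the peptidoglycan of bacterial walls, perforin-2 (Mpeg1) forms pores in membranes of engulfed bacteria, and Nramp1 (Slc11a1) pumps divalent metals out of the phagosome. Lipocalin 2 (Lcn2) captures bacterial siderophores, calprotectin (S100a8 with S100a9) binds zinc and manganese, and the secretory leukocyte protease inhibitor (Slpi) blocks neutrophil serine proteases and has antimicrobial activity of its own. IL-4 and IL-13 signal through STAT6 and drive macrophages towards the alternatively activated state known as M2.

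The libraries could be checked only in part. Recovered reads (TPM multiplied by exon length, in steps of 1 read) came to between 15815847 and 17095787 in 8 libraries and to 32193523 in Q11 replicate 2. That library held fewer reads than Q11 replicate 3 in only 11 of the 19252 genes read there, against 1929 to 2413 genes for the other 7 libraries, so both were treated as sharing reads. As deposited these Q11 libraries are then not independent. Their SD, and the intervals and p-values of all 3 comparisons, which use 1 estimate of the spread, can therefore be too small. For Slc11a1 the standard error was 0.0205 as deposited and 0.0271 separated. Values with the reads of Q11 replicate 3 subtracted from Q11 replicate 2 are called separated; they are given for that library and where a call or the side of 0 of an interval changes. All 10 macrophage markers, which include the effectors Lyz2 and Mpeg1, averaged 1 TPM or more. Their sum, to which Lyz2 gave most, was 12521 to 12948 TPM in control, 8218 to 8839 in M2 and 8568 to 8647.5 in Q11 libraries. By the tests below, 4 of the 10 fell in M2 against control (Itgam, Cd14, Lyz2, Mpeg1), beside 5.75% of all genes. In Q11 against control 3 fell (Cd14, Lyz2, Mpeg1), beside 5.53%. Only Cdh5, at 1.74 TPM, averaged 1 TPM or more among the 4 endothelial markers. None did among the other cell types' markers that the table held, which were 2 of 9 epithelial, 2 of 7 T and NK, 5 of 5 B, 3 of 6 fibroblast and 2 of 4 erythroid markers. Neutrophil markers summed to 33.3 to 42.9 TPM in control, 20.6 to 34.6 TPM in M2 and 21.5 to 23.9 TPM in Q11 libraries; 3 of the 10 in the table averaged 1 TPM or more, and the highest was S100a8 itself.

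Mice have a pair of neighbouring lysozyme genes, Lyz2 of macrophages and Lyz1, known from the Paneth cells of the intestine. Lyz2 (ENSMUSG00000069516) lies on the minus strand of chromosome 10 from 117277331 to 117282321 in GRCm38, with 4 exon blocks and 1316 exonic bases. Lyz1 (ENSMUSG00000069515) lies next to it on the same strand, from 117287797 to 117292868, also with 4 exon blocks, and 1263 exonic bases. Both coding sequences are 447 bases long in GENCODE M21 and differ at 22 bases, an identity of 95.08%. A stretch with 13 of these differences is shown because it holds most of them. It holds coding bases 43 to 132, counted from the first base of the start codon, and the capitals mark the differing bases.
Lyz1: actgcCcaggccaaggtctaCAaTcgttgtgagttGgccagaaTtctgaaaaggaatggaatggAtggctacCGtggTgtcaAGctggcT
Lyz2: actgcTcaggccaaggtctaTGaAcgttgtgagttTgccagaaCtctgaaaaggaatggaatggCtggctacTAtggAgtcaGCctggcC

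Stretches that the pair shares without any difference were counted on the whole transcripts. Of the 1214 windows of 50 bases in the Lyz1 transcript, 195 (16.1%) occurred unchanged in the Lyz2 transcript. At 100 bases it was 24 of 1164 windows (2.06%), and at 150 bases 0 of 1114. The longest identical run in the coding sequences was 118 bases. These counts cover exact matches only, so they do not measure how many reads could move between the pair.

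The promoters of the pair are also alike near the start site. The 120 bases before each RefSeq start are shown (GRCm38.p6, minus strand, chr10:117292869-117292988 for Lyz1 and chr10:117282273-117282392 for Lyz2), because the transcript levels of the pair lie far apart. Capitals mark the 9 bases that differ, an identity of 92.5%, and the 50 bases next to the start are identical. The GENCODE start of Lyz2 lies 49 bases upstream of the RefSeq start, and for Lyz1 the starts coincide.
Lyz1: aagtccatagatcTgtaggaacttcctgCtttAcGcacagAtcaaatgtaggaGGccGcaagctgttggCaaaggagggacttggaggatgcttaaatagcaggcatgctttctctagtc
Lyz2: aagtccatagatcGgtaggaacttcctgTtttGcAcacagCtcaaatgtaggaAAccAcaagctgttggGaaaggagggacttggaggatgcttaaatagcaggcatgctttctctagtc

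Lyz2, the macrophage lysozyme, fell by nearly equal amounts with the cytokines alone and with Q11 added. Control libraries held 6698, 7140 and 6740 TPM of Lyz2. M2 libraries held 3343, 3678 and 3766 TPM, and Q11 libraries 3705, 3694 (3655 separated) and 3766 TPM. Every control library stood above every treated library with a wide gap, while the M2 and Q11 ranges overlapped. These are levels in bulk RNA of 1 cell line, in which a fall in all cells and a fall in some cells cannot be told apart. In limma's fit of log2(TPM + 1) over all genes, Lyz2 fell by 0.93 in M2 against control (95% interval -1.04 to -0.83, adjusted p = 6.15e-06). In Q11 against control, which shares the same control libraries, the difference was -0.88 (95% interval -0.99 to -0.78, limma adjusted p = 8.58e-06). The mean level was 1.91 times higher in control than in M2 and 1.84 times higher in control than in Q11. Between Q11 and M2 the difference was 0.05 (95% interval -0.05 to 0.16, limma adjusted p = 0.696), which leaves room for a change in Lyz2 within that interval. Under quantile normalization its sign turned, to -0.03 (limma adjusted p = 0.884), and the difference of M2 against control was -0.78 (limma adjusted p = 0.000218). Lyz2 stayed among the most abundant transcripts, ranking 11 of 26157 genes by mean TPM over the 9 libraries.

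**Figure D1:**
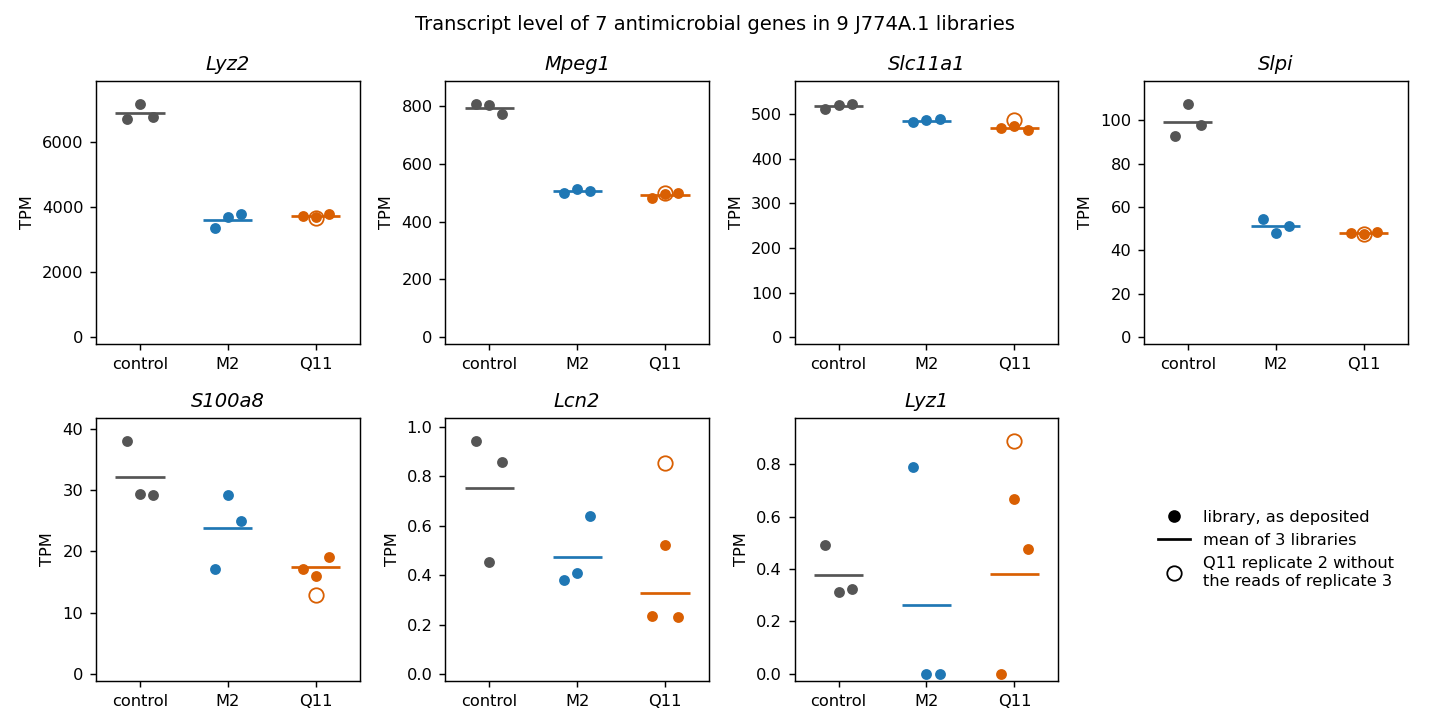
TPM of the 7 genes in each of the 9 libraries, 1 panel per gene with its own axis from 0; filled points are libraries, lines are group means of 3 libraries, and the open circle is Q11 replicate 2 after subtraction of the reads of Q11 replicate 3. Lyz2, Mpeg1, Slpi and, by a small margin, Slc11a1 stand higher in all 3 control libraries than in any treated library. Lyz1 and Lcn2 stay under 1 TPM throughout.

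Lyz1 was nearly silent beside it. Control libraries held 3, 2 and 2 recovered reads of Lyz1, against 42749, 47536 and 43314 reads of Lyz2. M2 libraries held 5, 0 and 0 reads of Lyz1, and Q11 libraries 0, 8 (5 separated) and 3. A count of 0 in a library allows up to 3 reads as a one-sided 95% limit. Summed over a group, and with the shared reads separated, there were 7 reads in control (exact two-sided Poisson 95% interval 2.81 to 14.4), 5 in M2 (1.62 to 11.7) and 8 in Q11 (3.45 to 15.8). These intervals overlap and cover counting error only, which is not a test, and no difference in Lyz1 was seen at this depth. Whether any of the reads counted for Lyz1 came from Lyz2 was not tested.

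As a share of the TPM of both genes, Lyz1 made up 0.00731%, 0.00438% and 0.00481% in control libraries. The share was 0.0235% in M2 replicate 1 and 0 in the other 2 M2 libraries. In Q11 libraries it was 0, 0.0180% (0.0243% separated) and 0.0126%. The groups overlapped in all 3 comparisons, and an exact two-sided permutation test over libraries gave p = 1 for M2 against control, p = 1 for Q11 against M2 and p = 0.4 for Q11 against control, where 0.1 is the smallest p that 3 against 3 libraries allow. With the pair summed in place of both genes, the difference was -0.93 in M2 against control (limma adjusted p = 6.09e-06). The sum does not depend on how reads were divided between the pair. With so little Lyz1 counted, however, it had to come out close to Lyz2 alone, so it adds little to that result. The summed difference was 0.05 in Q11 against M2 (limma adjusted p = 0.696) and -0.88 in Q11 against control (limma adjusted p = 8.49e-06).

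Mpeg1 encodes perforin-2, a pore-forming protein of the macrophage that acts on engulfed bacteria. It lies on the plus strand of chromosome 19, from 12460779 to 12465283, with 2 exon blocks and 4334 exonic bases (ENSMUSG00000046805). Control libraries held 806, 803 and 773 TPM of Mpeg1. M2 libraries held 498, 512 and 507 TPM, and Q11 libraries 481, 496 (500.3 separated) and 498 TPM. Control stood clear of both treated groups, by more than the spread within any group. In M2 against control Mpeg1 fell by 0.65 on the log2 scale (95% interval -0.71 to -0.59, limma adjusted p = 2.08e-06), which is a level 36.3% lower. Q11 against control gave a difference of -0.69 (95% interval -0.75 to -0.63, limma adjusted p = 1.35e-06), a level 38.0% lower. Q11 libraries lay below M2 libraries as deposited, the nearest being M2 replicate 1 at 498.3 TPM and Q11 replicate 3 at 498.01 TPM, and they overlapped once separated. That difference was -0.04 (95% interval -0.10 to 0.02, limma adjusted p = 0.581).

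Slc11a1 encodes Nramp1, the transporter that removes iron and manganese from the phagosome. It lies on the plus strand of chromosome 1, from 74375195 to 74386062, with 13 exon blocks and 3705 exonic bases (ENSMUSG00000026177). Its level moved far less than that of Lyz2 or Mpeg1. Control libraries held 511, 521 and 522 TPM of Slc11a1. M2 libraries held 482, 486 and 489 TPM, and Q11 libraries 469, 473 (488 separated) and 464 TPM. The groups stood apart in that order as deposited, but with the reads separated Q11 replicate 2 lay inside the M2 range. In M2 against control the difference was -0.09 (95% interval -0.14 to -0.05, limma adjusted p = 0.0198), a level 6.25% lower. That call was lost in 7 of 18 alternatives, among them no mean-variance trend (limma adjusted p = 0.0977), only the 2 groups compared (0.0697) and the shared reads separated (0.0661). It was also lost without M2 replicate 1 (0.0584), control replicate 2 (0.0621) or control replicate 3 (0.0665). In Q11 against control Slc11a1 fell by 0.14 (95% interval -0.19 to -0.10, limma adjusted p = 0.00285; separated 0.0217), a level 9.45% lower, and this call held in all 18 alternatives run. Q11 against M2 gave -0.05 (95% interval -0.10 to -0.0034, limma adjusted p = 0.407), and separated -0.04 (95% interval -0.10 to 0.03, limma adjusted p = 0.761).

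The pore former and the metal transporter are neighbours in the order of TPM. In TPM, which here matched division by all annotated exonic bases, the level of Mpeg1 was 1.53 ± 0.0485 times that of Slc11a1 in control libraries (SD, n = 3). It was 1.04 ± 0.0106 times in M2 and, as deposited, 1.05 ± 0.0236 times in Q11 libraries. The ratios of control and treated libraries did not overlap. This ratio was not tested. Within each of the 9 libraries Mpeg1 was the higher in TPM, by the smallest margin in Q11 replicate 1 as deposited (1.03 times). Slc11a1 has 3705 exonic bases but a longest coding transcript of 2315 bases, whereas Mpeg1 has 4334 bases by both measures. Which of the 2 genes stands higher therefore depends on the length used.

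Slpi encodes a small secreted inhibitor of neutrophil elastase and related proteases, built of whey acidic protein (WAP) domains. It lies on the minus strand of chromosome 2, from 164354070 to 164389095, with 6 exon blocks and 1180 exonic bases (ENSMUSG00000017002). Control libraries held 92.8, 107 and 97.7 TPM of Slpi. M2 libraries held 54.6, 48.1 and 51.2 TPM, and Q11 libraries 47.8, 47.8 (47.7 separated) and 48.3 TPM. Each control library was well above each treated one, and the treated groups overlapped. Slpi fell by 0.94 in M2 against control (95% interval -1.07 to -0.80, limma adjusted p = 2.51e-05) and by 1.03 in Q11 against control (95% interval -1.17 to -0.90, limma adjusted p = 1.60e-05). In TPM the level was 48.3% lower in M2 and 51.7% lower in Q11. The difference of Q11 against M2 was -0.09 (95% interval -0.23 to 0.04, limma adjusted p = 0.577).

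S100a8, a subunit of calprotectin, is best known from neutrophils and is also made by monocytes and activated macrophages. It lies on the plus strand of chromosome 3, from 90668978 to 90670035, with 3 exon blocks and 694 exonic bases (ENSMUSG00000056054). Control libraries held 38.0, 29.3 and 29.2 TPM of S100a8. M2 libraries held 17.2, 29.2 and 25.0 TPM, and Q11 libraries 17.2, 16.1 (12.9 separated) and 19.0 TPM. The Q11 libraries lay below every control library, whereas M2 replicate 2 reached the lowest control value. These levels rest on 58 to 128 reads per library, or 40 in Q11 replicate 2 once separated. Against control, S100a8 fell in Q11 libraries by 0.84 (95% interval -1.24 to -0.44, limma adjusted p = 0.0180), and separated by 0.94 (limma adjusted p = 0.0217). The call was lost without Q11 replicate 1 (limma adjusted p = 0.0543), Q11 replicate 2 (0.0675) or control replicate 1 (0.0606).

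M2 against control gave -0.44 for S100a8 (95% interval -0.84 to -0.04), with an unadjusted p of 0.0349 and a limma adjusted p of 0.154; the separated interval was -0.89 to 0.0093. Without M2 replicate 1 that difference was -0.23, and with 1 library left out it ran from -0.60 to -0.23. Q11 against M2 gave -0.40 (95% interval -0.80 to 0.0010, limma adjusted p = 0.440), and separated -0.50 (95% interval -0.95 to -0.05, limma adjusted p = 0.589). With 1 library left out it ran from -0.61 (without M2 replicate 1) to -0.24 (without M2 replicate 2). Past the threshold in one comparison and not in the other, S100a8 was therefore not shown to differ between M2 and Q11 cells. Of the other neutrophil markers in the table, Csf3r had mean levels of 2.36, 2.19 and 2.18 TPM in control, M2 and Q11, and Mmp8 of 1.11, 1.99 and 1.37 TPM. The others stayed under 1 TPM in each group's mean, the highest being Camp at 0.630, 0.451 and 0.861 TPM. Their part in the S100a8 values was not tested.

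Lcn2 encodes the siderophore-binding lipocalin, which rises in macrophages given bacterial products. It lies on the minus strand of chromosome 2, from 32384633 to 32388252, with 5 exon blocks and 2623 exonic bases (ENSMUSG00000026822). Its coding transcripts have only 915 and 908 bases, so its TPM and its place under the filter depend on the length used. Control libraries held 0.943, 0.452 and 0.859 TPM of Lcn2, M2 libraries 0.379, 0.407 and 0.638 TPM, and Q11 libraries 0.236, 0.521 (0.855 separated) and 0.229 TPM. The 3 groups overlapped. Summed over a group and separated, the reads were 29 in control (exact Poisson 95% interval 19.4 to 41.6), 18 in M2 (10.7 to 28.4) and 16 in Q11 (9.15 to 26.0). These intervals overlap, but overlap is not a test of a difference. Without a filter, limma's fit of Q11 against control as deposited gave 6 of the 7 genes an unadjusted p under 0.05. It called the 5 tested genes, and neither Lyz1 nor Lcn2. Lyz1 had mean levels of 0.376 TPM in control and 0.381 TPM in Q11.

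**Figure D2:**
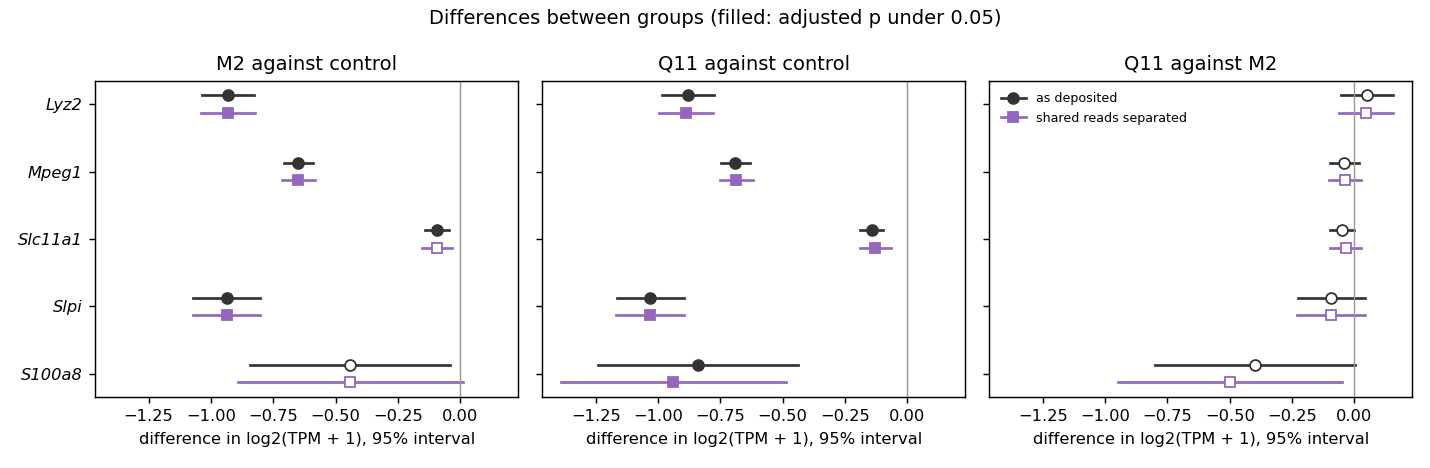
Differences in log2(TPM + 1) with 95% intervals for the 5 tested genes in the 3 comparisons, from limma's fits of the deposited and of the separated values. Lyz2, Mpeg1 and Slpi lie between -1.03 and -0.65 against control in both treated groups as deposited, Slc11a1 lies close to 0, and the widest intervals belong to S100a8.

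Counted together, 4 of the 5 tested genes fell in M2 against control (Lyz2, Mpeg1, Slc11a1 and Slpi) and none rose. Over all 14207 genes tested 12.6% changed in that comparison, of which 5.75% of all genes fell and 6.88% rose. These shares of all genes, here and below, are not matched for level. With a filter of 5 TPM, 1909 of 10380 genes changed in M2 against control and 1636 of 10380 in Q11 against control. Separated, 3 of the 5 fell (Lyz2, Mpeg1 and Slpi), against 4.3% of genes falling and 4.92% rising. The 4 genes also had M2 libraries entirely below control libraries, which held for 13.9% of all genes (14.1% separated). In Q11 against control all 5 tested genes fell, against a background of 10.7% changed, 5.53% falling and 5.19% rising, and all 5 had Q11 libraries entirely below control libraries, against 15.8%. Separated, all 5 again fell, against 3.93% of genes falling and 3.96% rising, and all 5 stood below control without overlap, against 12.3%. In Q11 against M2 limma called 0 of 5, as it called 0% of all genes; 1620 genes had an unadjusted p under 0.05, and other fits of that comparison called 0 to 3 genes. Mpeg1 and Slc11a1 had Q11 libraries entirely below M2 libraries as deposited, against 8.43% of genes, and with the reads separated neither did, against 5.02%.

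The median difference over the genes tested was -0.0026 in M2 against control and 0.0035 in Q11 against control, in a unit whose column totals are equal. Ordered from the largest fall among the 14207 genes, M2 against control placed Slpi at 158, Lyz2 at 160, Mpeg1 at 383, S100a8 at 804 and Slc11a1 at 4366. With the same control libraries, Q11 against control placed Slpi at 93, Lyz2 at 150, S100a8 at 167, Mpeg1 at 270 and Slc11a1 at 2911.

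**Figure D3:**
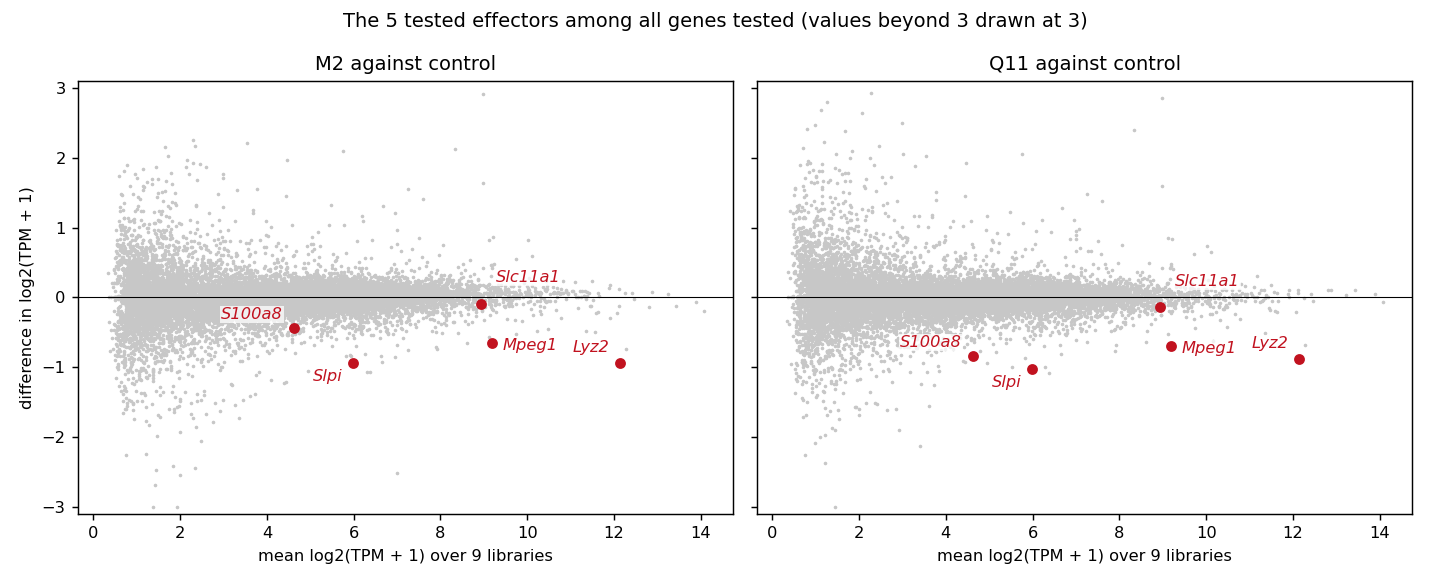
Difference in log2(TPM + 1) against control for every gene tested (grey, 14207 genes) and the 5 tested effectors (red), plotted over the mean log2(TPM + 1) of the 9 libraries for M2 and Q11; values beyond 3 are drawn at 3. Lyz2, Mpeg1 and Slpi lie below the bulk of genes of like level in both panels, while Slc11a1 lies close to the line at 0.

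The genes whose levels most resembled each effector were taken by Pearson correlation of log2(TPM + 1) over the same 9 libraries, among 8223 genes averaging 10 TPM or more. All points share the 3 group means, so r mainly records an alike split between control and treated libraries, and it is given as a description. Lyz2 was closest to Anxa5 (r = 0.999), which encodes the phosphatidylserine-binding annexin A5, then to Cd14 (r = 0.998), the LPS co-receptor, and Tlr2 (r = 0.998), the receptor for bacterial lipoproteins. Tlr2 held 125 TPM on average in control, 59.5 in M2 and 62.4 in Q11 libraries. Mpeg1 was closest to Cxcl16 (r = 0.996), a chemokine and scavenger receptor, to Pilra (r = 0.994), an inhibitory receptor, and again to Tlr2 (r = 0.992).

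Slc11a1 was closest to Ecm1 (r = 0.982), Syk (r = 0.982), a kinase of phagocytic receptors, and Prss50 (r = 0.981). Slpi was closest to Pkp4 (r = 0.991), Myh14 (r = 0.989) and Tm6sf1 (r = 0.989), and S100a8 to Osbpl2 (r = 0.951), Lgals9 (r = 0.940) and C1qb (r = 0.935), a chain of complement C1q. Among the 5 effectors themselves r ran from 0.715 (Slpi with S100a8) to 0.990 (Lyz2 with Mpeg1).

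Sequence motifs were searched in the RefSeq promoters of all 8 genes (250 bases before to 50 after the start, both strands), as a description of these letters only. The C/EBP-like TTGCNNAA, present in 10.8% of 32851 mouse promoters, occurred in Lyz1 (-209 to -202 from the start), Slpi, Lcn2 and S100a9. The PU.1-like GAGGAA, present in 28.3%, occurred once each in Slc11a1 and Lcn2 and at -170 and -36 in S100a8. The STAT6-like motif, present in 6.95%, occurred in Lcn2 alone, at -156. The NF-kB-like motif (20.7%) and the AP-1-like TGANTCA (7.81%) had no match in the 8 windows, and the windows of Lyz2 and Mpeg1 matched none of these motifs. No matches overlapped each other.

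Other antimicrobial genes were followed in 11 lists that also hold the effectors. Without the effectors, the lists had 116 genes in the table and 73 tested. In M2 against control 18 of these 73 fell (24.7%) and 5 rose (6.85%), beside 5.75% and 6.88% of all genes, and their median difference was -0.07. In Q11 against control 19 fell (26.0%) and 6 rose (8.22%), beside 5.53% and 5.19% of all genes, with a median of -0.10, and in Q11 against M2 none changed. With the shared reads separated 17 fell and 4 rose in M2 against control (23.3% and 5.48%, beside 4.3% and 4.92% of all genes). For Q11 against control it was 19 and 5 (26.0% and 6.85%, beside 3.93% and 3.96%). The shares of all genes are again not matched for level. Values below are mean TPM ± SD over 3 libraries, and calls are limma's in M2 against control unless another comparison is named.

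The phagocyte NADPH oxidase makes superoxide in the phagosome. Of its 8 tested genes 4 fell and none rose in M2, with a median difference of -0.10. Its catalytic subunit Cybb fell most, from 73.8 ± 3.37 TPM in control to 34.1 ± 1.37 in M2, with 36.6 ± 2.22 in Q11 (M2 against control -1.09, limma adjusted p = 6.80e-06). The cytosolic subunit Ncf1 fell less, from 151 ± 5.85 TPM in control to 120 ± 1.97 in M2. Rac2, the GTPase of the complex, fell from 815 ± 12.9 to 750 ± 20.3 TPM. Cyba, the partner subunit of Cybb in the membrane, held 1498 ± 50.6 TPM in control and 1442 ± 26.8 in M2. It did not pass the test (limma adjusted p = 0.303), and neither did Ncf4. Cyba was called lower in Q11 against control, at 1356 ± 27.0 TPM in Q11 (limma adjusted p = 0.0190).

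Receptors and regulators of these effectors changed in 4 of 18 tested genes in M2, all falls, with a median of -0.01. Tlr2 fell by 1.06 on the log2 scale (limma adjusted p = 6.69e-07) and Cd14 by 0.67, from 1527 ± 26.2 to 962 ± 38.7 TPM. Nfkbiz, a nuclear cofactor needed for Lcn2 induction, fell from 12.4 ± 0.503 to 6.54 ± 0.812 TPM. Irf8, a transcription factor of macrophage development, fell from 89.4 ± 4.48 to 65.8 ± 2.86 TPM. Transcripts of the lineage factor PU.1 (Spi1, 347 ± 8.73 and 341 ± 6.14 TPM) and of C/EBP beta (Cebpb, 396 ± 33.7 and 332 ± 34.4 TPM) did not pass the test, with limma adjusted p of 0.685 and 0.0903. In Q11 against control 4 of the 18 fell and 1 rose. The rise was that of Tlr4, named after its values were seen (0.22, limma adjusted p = 0.0321, separated 0.0452).

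Genes that recognise or act on bacterial products moved both ways, with 4 falls and 3 rises among 10 tested and a median of -0.19. Clec4e (Mincle, a receptor for mycobacterial cord factor) fell from 208 ± 9.09 to 123 ± 6.11 TPM. Acod1, which makes itaconate, fell from 8.13 ± 1.19 to 4.26 ± 1.02 TPM, and Nod2, the sensor of muramyl dipeptide, from 9.53 ± 1.40 to 6.58 ± 0.493 TPM. Cathepsin S (Ctss) fell from 2025 ± 50.3 to 1653 ± 73.6 TPM. Clec7a (dectin-1, the receptor for fungal beta-glucan) rose from 8.70 ± 0.775 to 12.8 ± 0.859 TPM and Lgals3 (galectin 3) from 2620 ± 40.0 to 3093 ± 85.9 TPM. The remaining rise was that of Pla2g5, a secreted phospholipase named after its values were seen, from 87.6 ± 3.84 to 106.8 ± 2.73 TPM.

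Among genes of metal handling, 5 of 13 tested fell and 1 rose in M2 (4 and 1 separated, the loss being Slc11a1), with a median of -0.09. The iron exporter ferroportin (Slc40a1) fell from 6.92 ± 0.452 to 4.40 ± 0.370 TPM, and the ferritin heavy chain Fth1 from 3473 ± 84.4 to 2997 ± 210.2 TPM. The zinc transporters Slc30a1 (34.4 ± 0.594 to 28.4 ± 1.41 TPM) and Slc39a8 (26.6 ± 0.848 to 22.5 ± 1.31 TPM) also fell. Slc31a2, a copper transporter, rose from 54.3 ± 2.74 to 77.5 ± 3.47 TPM. The ferritin light chain Ftl1 held 7215 ± 182 and 7602 ± 291 TPM and did not pass the test (limma adjusted p = 0.354). In Q11 against control 4 of the 13 fell and 2 rose, Slc31a2 and Atp7a. Atp7a, named after its values were seen, rose by 0.19 (limma adjusted p = 0.0470), and its call was lost separated (0.0666).

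Family members of the effectors mostly stayed under the filter or did not pass the test. In the WAP family, 2 of 8 genes in the table were tested: Slpi fell, and Wfdc17 held 89.7 ± 8.74 TPM in control and 63.3 ± 14.6 in M2 (limma adjusted p = 0.0613). Of 8 tested S100 family genes, S100a10 alone was called in M2, rising from 495 ± 11.8 to 556 ± 27.8 TPM, and its call was lost with the shared reads separated (limma adjusted p = 0.0650). S100a8 and S100a11 were the only family genes called in Q11 against control, both lower. In the lysozyme family Lyzl4 was tested beside Lyz2 and held 5.58 ± 0.937 TPM in control, with a difference of 0.42 in M2 (limma adjusted p = 0.216). The lipocalin list had only Apom tested (limma adjusted p = 0.619). Of the pore-forming list, Mpeg1 alone was called among 4 tested genes in M2, and Gsdmd, the pore former of pyroptosis, held 161 ± 4.26 and 153 ± 3.52 TPM (limma adjusted p = 0.154). Gsdmd was called lower in Q11 against control (limma adjusted p = 0.0320, separated 0.0492).

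Among GTPases and autophagy genes that act on pathogen vacuoles, 2 of 12 tested genes fell in M2 and none rose, with a median of -0.14. Ifi47, an immunity-related GTPase, fell from 10.5 ± 0.851 to 5.84 ± 0.519 TPM. The autophagy receptor Optn fell from 18.1 ± 0.535 to 14.7 ± 0.508 TPM as deposited, and its call was lost with the shared reads separated (limma adjusted p = 0.0974).

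**Figure D4:**
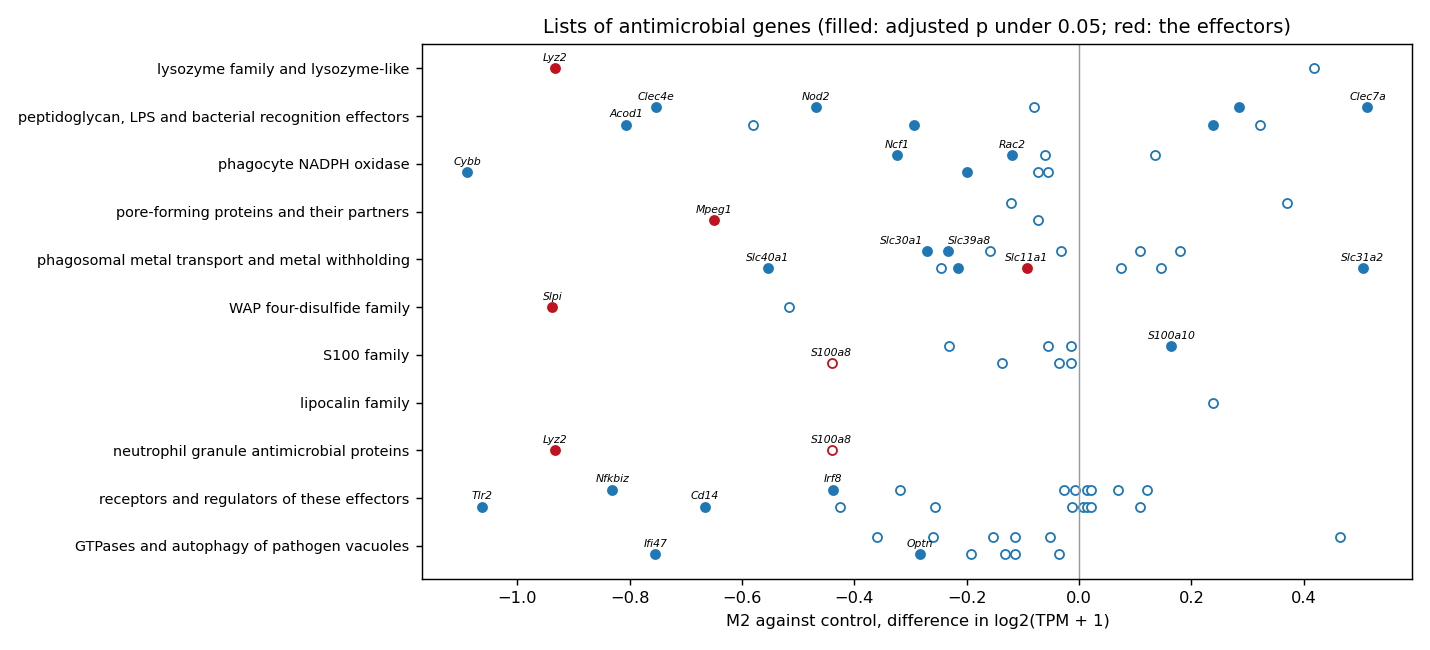
Difference in log2(TPM + 1) of M2 against control for each tested gene of the 11 antimicrobial lists, 1 band of points per list; genes called by limma (adjusted p under 0.05) are filled, up to 4 of them per list are named, and the effectors are red. Lyz2, Mpeg1 and Slpi are the lowest tested genes of the lysozyme, pore-forming and WAP lists, and Tlr2 and Cybb, at -1.06 and -1.09, lie lowest of all.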

How the data were processed

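Transcript levels of 26157 genes in 9 libraries were deposited as TPM, with equal column totals. HISAT2 2.0.5, StringTie 1.3.3b and the build GRCm38 (mm10) were used per the submitters' processing notes; the annotation and counting settings are not given in the sources used here. Libraries were poly-A selected, per the labels' protocols, and read strand is not stated.

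Genes reaching 1 TPM in 3 or more libraries (14207) were analysed as log2(TPM + 1), computed from the deposited TPM; this scale understates changes of low genes. Group means over all 9 libraries were estimated by limma 3.58.1, run in R 4.3.3 (eBayes with trend, 6 residual degrees of freedom). Tests were two-sided, with Benjamini-Hochberg adjustment over all genes tested and a threshold of 0.05. Alternatives were another pseudocount, 5 TPM as filter and no filter, quantile normalization, no trend, limma-voom on recovered reads, a replicate block, only the groups compared, shared reads separated, and each library left out.

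Whole reads were recovered with GENCODE M21 exon lengths (25594 IDs matched, 97.8%); low values, up to 20 reads, were whole within 0.1 read for 98.8% to 99.2%. The separated fit tested 14015 genes. Promoters are RefSeq's for GRCm38.p6 and all 8 genes matched. Python 3.11.15, numpy 2.4.6, pandas 2.3.3, scipy 1.17.1 and matplotlib 3.10.9 were used.

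The genes, lists, tests and the separation of shared reads were chosen with earlier results of these data known. Named were all the effectors, the 3 genes most correlated with each tested effector, and from each list up to 4 called in M2 against control with the largest changes and up to 3 with the highest levels; some items this rule names are not reported here.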

Additional observations from a re-analysis of the deposited data

How the results depend on the processing

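Of the 5 tested effectors, Lyz2, Mpeg1 and Slpi kept direction and call against control in both treated groups under all 18 alternatives, and in Q11 against M2 none was called under any. Quantile normalization turned the sign of Lyz2 in Q11 against M2, from 0.05 to -0.0344, and likewise for Lyz1 and Lyz2 summed (-0.0344); neither was called. The call of Slc11a1 in M2 against control held in 11 of 18 (limma adjusted p 0.00394 to 0.0977) and that of S100a8 in Q11 against control in 15 of 18. Genes called over the whole table moved more: M2 against control had 1794, with 1110 when only the 2 groups compared were fitted and 1146 to 1656 with 1 library left out (1146 without control replicate 1, 1178 without control replicate 3). Q11 against M2 had 0, with 2 by limma-voom on recovered reads, 3 without a filter, 2 without the trend, and 0 to 2 with 1 library left out. Q11 against control had 1524, and 771 to 1616 with 1 library left out (792 without Q11 replicate 2, 771 without Q11 replicate 3). The cause of these shifts was not tested.

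With the replicate number as a block, M2 against control had 1335 genes called, Q11 against control 1086 and Q11 against M2 0, and the call of Slc11a1 in M2 against control was lost (limma adjusted p = 0.0543). No pairing of libraries by number was seen in the deposited values, in which Q11 replicate 2 keeps its shared reads. Deviations of same-numbered libraries correlated at -0.0309 to 0.0362, and of others at -0.0466 to 0.059. Depth limits Lyz1 and Lcn2, and the ratio of S100a8 to S100a9 was not run because S100a9 was not analysed here.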

Other observations

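Levels in the neutrophil granule list were low apart from the effectors described above. Cebpe, a transcription factor known for the late granule genes of neutrophils, was abundant at 168 ± 7.21 TPM in control, 184 ± 19.4 in M2 and 157 ± 11.4 in Q11 libraries (SD, n = 3), and limma called it in none of the 3 comparisons. Of the 14 granule genes in the table, only Lyz2 and S100a8 passed the filter. Ltf, the lactoferrin gene, held 0, 0.0192 and 0.0199 mean TPM in control, M2 and Q11, and Ngp 0, 0.113 and 0.224 mean TPM. Cebpe, Ltf and Ngp were singled out after their values were seen, and no test relates them.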
